A study of Drosophila mojavensis with 97 samples.

Results

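San Quintin is a locality in Baja California, where agria is the main host cactus of *Drosophila mojavensis*, and the comparison here is between San Quintin females reared on agria and San Quintin females reared on organ pipe cactus. Every array whose label carries the San Quintin code was taken, which gave 24 of the 97 arrays of the series, 12 for agria and 12 for organ pipe. All flies were wild-type females of the single stock SQ08, and each cactus group was divided equally among adult exposures of 15, 25 and 35 °C, with 4 arrays per combination. Per the study's methods, eggs were placed on fermenting tissue of one cactus, adults emerging from it were kept on banana food, and 7-day-old females in groups of 30 were held at their temperature for 12 hr before freezing. The labels word the diet differently and call it medium made from the cactus. The study's results text gives an older age than its methods for the adults used for RNA. RNA came from whole females, so a smaller tissue and less RNA per cell of that tissue cannot be told apart. The remaining arrays came from Punta Prieta (also Baja California), Punta Onah in Sonora and Organ Pipe National Monument in Arizona. One stock stood for San Quintin, and p-values measure only the spread between arrays within groups, estimated over all 97 arrays.

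Cactophilic *Drosophila* develop inside rotting stems, where larvae feed on yeasts and bacteria together with softened plant tissue. Digestive peptidases and their inhibitors, lipases and the chitin-lined peritrophic matrix act at the gut surface, cytochrome P450s and glutathione transferases process plant compounds, and peptidoglycan recognition proteins sense bacteria. Agria is the main host in Baja California and organ pipe the main host on the mainland, so San Quintin flies on organ pipe were reared on a cactus that is not their usual one. The comparison asks which adult transcripts carried a difference from the cactus in which the larvae grew.

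Expression was measured as 14528 transcripts on single-colour arrays, and the deposited values are log2, so a difference of 1 is a doubling. The interquartile range of an array, its spread across transcripts, ran from 2.51 to 3.42 in the 24 San Quintin arrays, the same range as in the series. The first component of the deviations of all 97 arrays from their group means took 42.5% of that residual variance, and its score had a correlation of 0.976 with the deviation in interquartile range. The arrays with the lowest spread in the series were both from San Quintin at 35 °C, replicate 4 on agria (2.51) and replicate 1 on organ pipe (2.52). Transcripts of the vitelline membrane gene Vm26Ab, made in ovarian follicle cells, lay between 12.05 and 14.22 in every San Quintin array, against a median of 9.97 over all transcripts.

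At 35 °C the arrays labelled replicate 4 stood apart from their groups, and how far depended on the measure. The array labelled agria replicate 4 had the lowest score of all 97 arrays on the spread component (-83.6) and the array labelled organ pipe replicate 4 the highest (57.2). Organ pipe replicate 1 was also far from its group on that component, with the next lowest score of all (-70.4). Each array was also scored on the 940 transcripts at higher levels on agria in Punta Prieta flies, as their mean minus the mean of the 99 at higher levels on organ pipe there. These transcripts were chosen by Punta Prieta values, with San Quintin arrays entering only through the shared error estimate. At 35 °C the agria arrays scored -0.363, -0.374, -0.455 and, for replicate 4, -1.63, the lowest score of the 24, while the organ pipe arrays scored -1.16, -0.997, -1.37 and, for replicate 4, -0.557. On this score both replicate 4 arrays were nearer to the other cactus's arrays than to their own. The groups did not overlap on it at 15 °C (-0.175 to 0.059 on agria and -0.491 to -0.196 on organ pipe) or at 25 °C (-0.560 to 0.153 and -1.05 to -0.645).

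A second score, from the transcripts called in Organ Pipe National Monument flies, set the pair apart less clearly. On it the agria arrays at 35 °C were at -0.644, -0.759, -1.02 and, for replicate 4, -1.01. The organ pipe arrays were at -0.485, -1.27, -1.47 and, for replicate 4, -1.05. Each replicate 4 array thus lay within the range of its own group. For organ pipe that range rested on replicate 1 (-0.485), the array of low spread, and replicate 4 lay above replicates 2 and 3. This score overlapped between cacti at 15 °C (-0.762 to -0.429 on agria and -0.731 to -0.384 on organ pipe) and was apart at 25 °C (-0.607 to -0.236 and -1.46 to -0.884). The 2 replicate 4 arrays therefore stood apart on the spread component and on the Punta Prieta score. On the second score the agria array did not, and the organ pipe array lay inside its group only through replicate 1. The part of spread in the first score was not tested. No array was reassigned or dropped from the main comparison, and the main results that rest on the pair are given with and without it. The pair was singled out by its values after the data had been seen, so a count without it shows how far the call rests on those arrays and is not independent evidence.

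**Figure D1:**
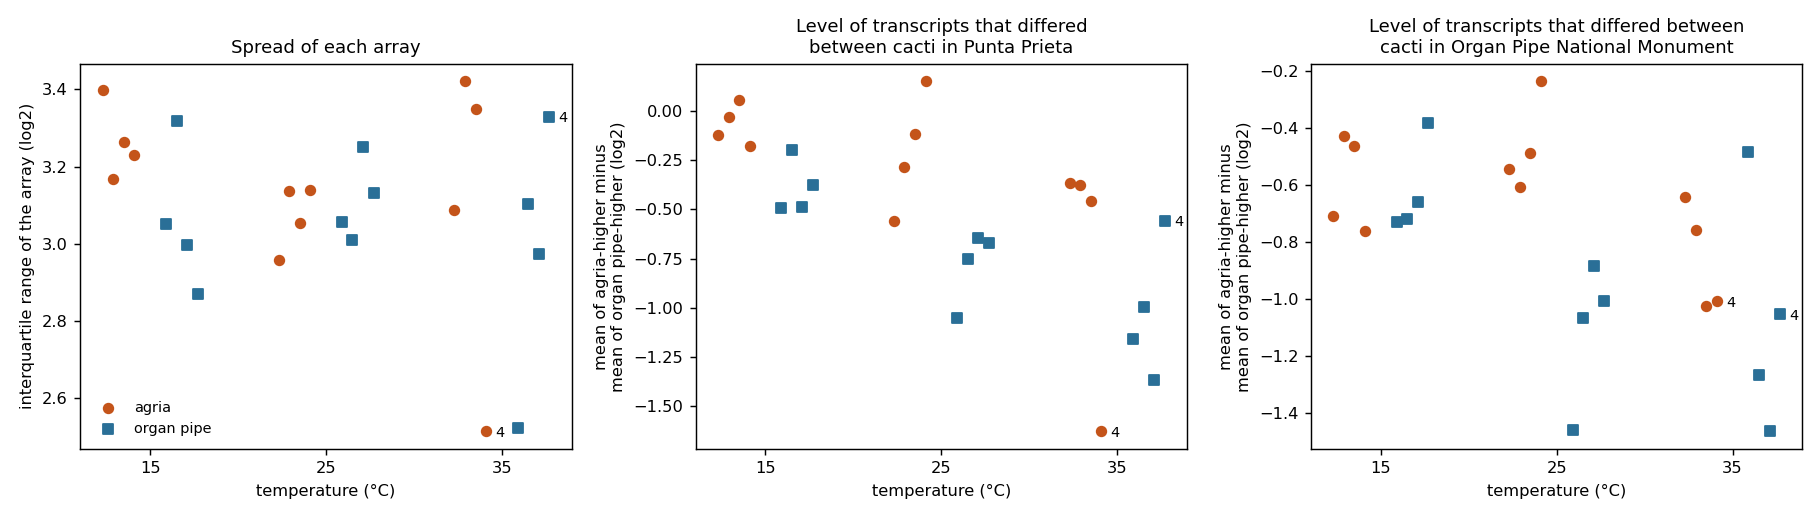
Left, interquartile range (log2 units) of each of the 24 San Quintin arrays by cactus and temperature, and middle and right, each array's score (log2 units) on the transcripts called in Punta Prieta and in Organ Pipe National Monument flies. Points marked 4 are the arrays labelled replicate 4 at 35 °C, at -1.63 on agria and -0.557 on organ pipe in the middle plot and at -1.01 and -1.05 in the right one.

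With all 24 arrays and the temperatures weighted equally, no transcript differed between agria and organ pipe at an adjusted p under 0.01 (0 of 14528 in limma, 0% called), and 3 did at an adjusted p under 0.05 (0.0206%). At an unadjusted p under 0.05 there were 2959 transcripts (20.4%), of which 1501 (10.3%) averaged higher on agria and 1458 (10.0%) higher on organ pipe. That even split depended on the scaling. With each array centred on its median it was 875 on agria (6.02%) and 2343 on organ pipe (16.1%). With quantile normalization again it was 1393 on agria and 1097 on organ pipe. With the interquartile range as a covariate it was 1437 and 1611. Differences were small, with the 5th and 95th percentiles at -0.35 and 0.29 (agria minus organ pipe, log2) around a median of -0.004, and the median standard error was 0.106. Only 43 transcripts differed by 1.5 times or more, 28 of them higher on agria and 15 higher on organ pipe. No transcript had every array of one cactus above every array of the other.

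The count turned on the replicate 4 arrays at 35 °C. Without the agria array, 417 transcripts passed the adjusted threshold (2.87%), 105 higher on agria and 312 higher on organ pipe. Without the organ pipe array, 53 passed (0.365%), 43 higher on agria and 10 higher on organ pipe. Without both, 2956 passed (20.3%), 786 higher on agria (5.41%) and 2170 higher on organ pipe (14.9%), and all of them had the same sign with all 24 arrays. Without replicate 4 of all 6 groups, 1259 passed (8.67%), and 1253 of these were among the 2956. Leaving out instead the 2 arrays of lowest spread gave 3 calls (0.0206%).

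The 2956 transcripts were mostly weak ones, and array spread moved with the difference. Of those higher on agria, 82.3% lay below the median level of all transcripts, and of those higher on organ pipe 90.4% did, with median differences of 0.45 and -0.53. Names or functional terms were at hand for 223 of the 786 higher on agria and for 41 of the 2170 higher on organ pipe. Over all transcripts they were at hand for 1415 of 14528, from tables of transcripts that the study had called. Across transcripts, the cactus difference without the pair had a correlation of 0.867 with the loading of the array spread component, and 0.692 with all arrays. That component was computed with the pair included, as its lowest and highest arrays. The higher value without them is therefore in part built in. With both arrays left out and the interquartile range as a covariate, 9 passed (0.0619%), all among the 2956. Of the 9, 3 were higher on agria, the metallocarboxypeptidase FBtr0170844, the Toll-family gene Tehao and FBtr0164396, and 6 without names were higher on organ pipe (FBtr0161912, FBtr0163132, FBtr0167774, FBtr0170226, FBtr0171284 and FBtr0174745), all named here after their values were seen. Adjusting p-values together over 483 pairwise comparisons between treatments, which is 1 possible reading of the study's methods, gave 57 calls from all 24 arrays (0.392%), 46 higher on agria and 11 higher on organ pipe. The joint calls shared 55 transcripts with the 2956, and 56 of the 57 had one direction at all 3 temperatures.

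**Figure D2:**
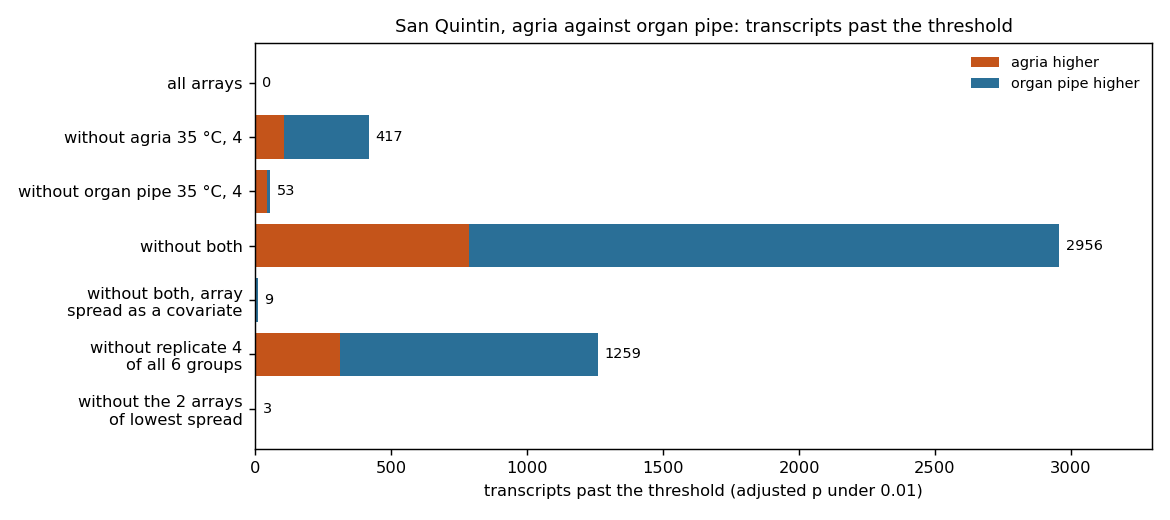
Number of transcripts at an adjusted p under 0.01 for agria vs. organ pipe in San Quintin flies, by which arrays entered the fit and whether array spread was a covariate, with transcripts higher on agria and higher on organ pipe stacked in each bar. The count was 0 with all arrays, 2956 without both replicate 4 arrays at 35 °C, and 9 with array spread added as a covariate.

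At an adjusted p under 0.05 there were 3 transcripts (limma, 0.0276 for each), and they are described in full although none passed 0.01. FBtr0170844 carries metallocarboxypeptidase terms, the activity that removes residues from the C-terminal end of peptides. At 15 °C its values were 12.92, 12.95, 13.00 and 12.96 on agria and 12.28, 12.77, 12.62 and 12.59 on organ pipe. At 25 °C they were 12.81, 12.08, 12.44 and 12.92 on agria and 11.44, 12.12, 12.22 and 12.20 on organ pipe. At 35 °C they were 12.74, 12.65, 12.28 and 12.57 on agria and 12.49, 11.88, 11.66 and 11.92 on organ pipe. The groups were apart at 15 °C and overlapped at 25 and 35 °C, and 6 of the 12 agria arrays lay above every organ pipe array. The difference was 0.51 ± 0.11 (SE, n = 12 per cactus), or 1.43-fold, and the values at 15, 25 and 35 °C were 0.40, 0.57 and 0.57. It was 0.39 in Punta Prieta flies, 0.25 in Punta Onah and 0.46 in Organ Pipe National Monument.

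Tehao (FBtr0170593, GI19868) is a member of the Toll receptor family in *D. melanogaster*. At 15 °C it measured 8.87, 8.56, 8.79 and 8.74 on agria and 8.12, 8.24, 8.32 and 8.18 on organ pipe. At 25 °C it measured 8.86, 8.93, 8.67 and 9.01 on agria and 7.81, 8.36, 8.31 and 8.64 on organ pipe. Every agria array was above every organ pipe array at both temperatures. At 35 °C it measured 8.91, 9.02 and 9.30 on agria with the array labelled replicate 4 at 8.40, and 8.25, 8.58 and 8.22 on organ pipe with replicate 4 at 9.20. These 2 arrays were the ones that brought the groups to overlap at 35 °C. The difference was 0.49 ± 0.10 (SE, 1.40-fold) with all arrays and 0.61 without the pair (adjusted p 4.59e-05, limma, and 0.00711 with array spread as a covariate). In the other populations it was 0.45 (Punta Prieta), 0.20 (Punta Onah) and 0.42 (Organ Pipe National Monument).

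FBtr0167649, a weak transcript with no annotation, was the one at higher levels on organ pipe. It measured 5.16, 5.96, 4.84 and 5.76 on agria and 5.62, 6.37, 5.74 and 6.35 on organ pipe at 15 °C. It measured 6.12, 5.04, 6.24 and 5.73 on agria and 6.55, 6.21, 6.58 and 6.17 on organ pipe at 25 °C. It measured 5.49, 4.31, 5.19 and 5.51 on agria and 6.48, 5.78, 6.16 and 5.37 on organ pipe at 35 °C. In 5 organ pipe arrays it lay above every agria array. The difference of -0.67 ± 0.14 (SE) was the lowest of all transcripts, and it was -0.11, -0.08 and 0.18 in Punta Prieta, Punta Onah and Organ Pipe National Monument.

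**Figure D3:**
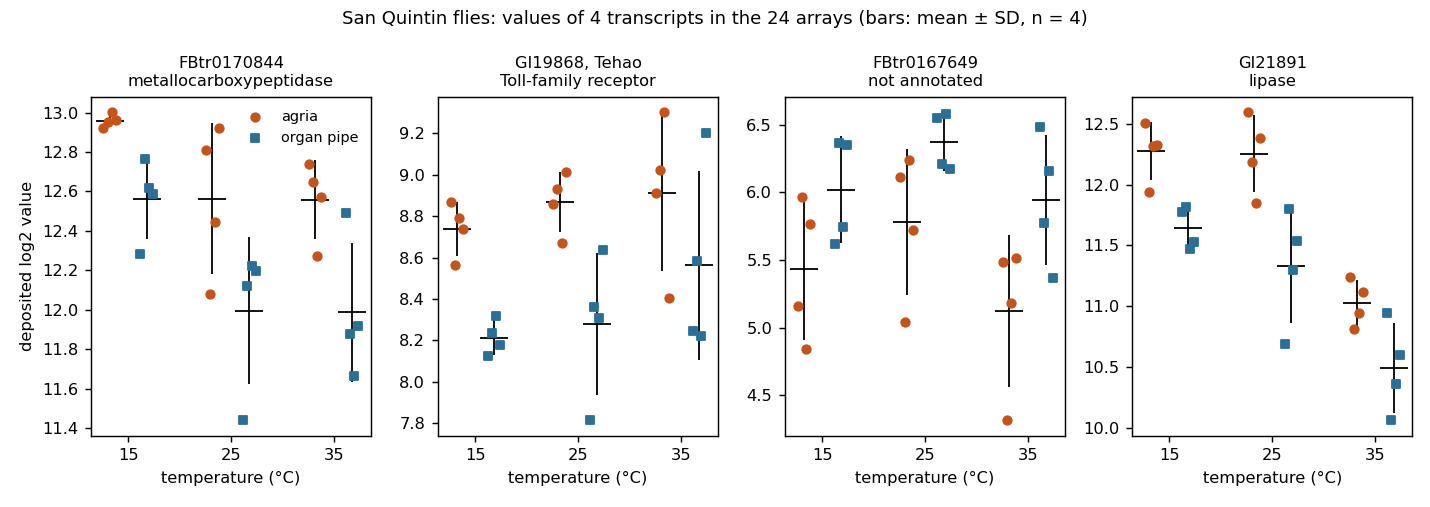
Deposited log2 values of FBtr0170844, Tehao, FBtr0167649 and the lipase GI21891 in each San Quintin array by cactus and temperature, with the mean ± SD (n = 4) per group. Agria arrays averaged higher for all but FBtr0167649, which averaged lower, and for Tehao the agria replicate 4 array at 35 °C (8.40) lay below its organ pipe counterpart (9.20).

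Names and functions were available for 1415 transcripts, and they came from tables of transcripts that the study had called on the arrays of this series. They are therefore not independent evidence of direction, and as a body they averaged higher on agria, with 1164 of 1415 above 0 and a median of 0.145, against 7086 of 14528 and -0.004 over all transcripts. Of the 1415, 475 averaged higher on agria and 63 higher on organ pipe at an unadjusted p under 0.05. In all, 20 functional lists covered 467 of them. With all arrays none of the 467 passed the adjusted threshold (limma, 171 at an unadjusted p under 0.05, 162 of them toward agria), and without the replicate 4 pair at 35 °C 69 passed, 63 higher on agria and 6 higher on organ pipe. That was 14.8% of the 467, against 20.3% of all transcripts and 18.7% of the annotated ones in the same fit, and 1 passed with array spread as a covariate.

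Peptidases and their inhibitors averaged higher on agria. Among 70 serine endopeptidases 61 averaged higher on agria, 39 of them at an unadjusted p under 0.05 against 2 toward organ pipe, with a median of 0.259. The medians were 0.20, 0.38 and 0.20 at 15, 25 and 35 °C. FBtr0167406 ranged from 12.49 through a median of 12.94 to 13.38 on agria and from 11.98 through 12.52 to 12.99 on organ pipe, so the groups overlapped with 4 agria arrays above every organ pipe array (0.41, adjusted p 0.0914). FBtr0167430 averaged 0.48 higher and GI23068 (CG13318) 0.39 higher. The gut proteases named after the Jonah family of *D. melanogaster* averaged 0.53 higher for GI16703 (Jon25Bi) and 0.21 higher for GI16680, which the tables pair with several Jonah genes.

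Metallopeptidases averaged higher on agria in 63 of 66 cases, with 29 toward agria and 1 toward organ pipe at an unadjusted p under 0.05 and a median of 0.224. Beside FBtr0170844, GI22618 (CG15255) ran from 8.51 to 9.71 on agria and from 7.87 to 9.56 on organ pipe, and 7 organ pipe arrays lay below every agria array. Its difference was 0.53 ± 0.13 (SE, adjusted p 0.0694), with 0.70, 0.68 and 0.20 at 15, 25 and 35 °C. Peptidase inhibitors averaged higher in 38 of 42 cases (20 toward agria and 2 toward organ pipe at an unadjusted p under 0.05, median 0.223). FBtr0161384 averaged 0.42 higher, FBtr0168316 0.55 higher and the Kunitz-type inhibitor FBtr0174602 0.44 higher. Without the replicate 4 pair, 10 serine endopeptidases, 11 metallopeptidases and 7 inhibitors passed the adjusted threshold toward agria and 1 of each toward organ pipe. These were 14.3%, 16.7% and 16.7% of the lists toward agria, near the 15.8% of all annotated transcripts in that fit, and with array spread as a covariate 0, 1 and 0 passed.

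Immune genes had the highest median among lists of more than 10 members. All 11 transcripts of peptidoglycan recognition and antimicrobial defence averaged higher on agria, 9 at an unadjusted p under 0.05, with a median of 0.419. The list's median was 0.463 in Punta Prieta, -0.006 in Punta Onah and 0.471 in Organ Pipe National Monument. Without the replicate 4 pair 4 passed the adjusted threshold toward agria (36.4%, beside 15.8% of all annotated transcripts). With array spread as a covariate as well, 0 passed. PGRP-SA (GI16473), which in *D. melanogaster* recognises bacterial peptidoglycan upstream of Toll, ran from 9.97 through 10.46 to 11.09 on agria and from 9.53 through 9.94 to 10.46 on organ pipe. In 6 agria arrays it lay above every organ pipe array and in 6 organ pipe arrays below every agria array (0.49 ± 0.14 SE, adjusted p 0.0986). FBtr0169534, annotated as an amidase, averaged 0.44 higher, and nimB5 (GI12680), of the nimrod family that includes blood cell phagocytic receptors in *D. melanogaster*, 0.52 higher. Of 30 chitin and peritrophic matrix transcripts 28 averaged higher (18 toward agria and 0 toward organ pipe at an unadjusted p under 0.05, median 0.242), among them the chitinase-annotated FBtr0169700 at 0.38 and Peritrophin-A (GI11033), a protein of the gut lining, at 0.30. Through their terms, 8 of the 11 immune transcripts, PGRP-SA and FBtr0169534 among them, are also members of both the chitin list (30) and the carbohydrate list (34). The chitin and carbohydrate lists share 13 members, so the counts of these lists are not independent.

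Detoxification and energy genes differed by less. The cytochrome P450 list holds 72 transcripts, of which 30 carry a P450 term and 42 a heme binding term alone, so it is not made up of P450s only. Of the 72, 68 averaged higher on agria with a median of 0.153, close to the 0.145 of all annotated transcripts. At an unadjusted p under 0.05 there were 17 toward agria and 1 toward organ pipe. Toward agria that was a smaller share than the 475 of all 1415 annotated transcripts at that level. Cyp305a1 (GI13668) averaged 0.25 higher, Cyp49a1 (GI20196) 0.30 and FBtr0170722, known by its heme binding term, 0.24. *D. melanogaster* orthologues were at hand for 25 members, and 12 of these have names other than P450 names. Among them were the hexosaminidase Hexo2 at 0.32, the guanylate cyclase subunit Gycbeta100B at 0.33, the transcription factor odd at 0.21 and the carbonic anhydrase CAH2 at 0.15. Of 8 glutathione transferases 7 averaged higher (median 0.122), with FBtr0170113 at 0.41 and FBtr0173919 at 0.28. All 57 members of oxidative phosphorylation averaged higher, although the median was 0.135, below that of annotated transcripts. At an unadjusted p under 0.05 there were 11, again a smaller share than among annotated transcripts. The list's medians were 0.066, 0.275 and 0.077 at 15, 25 and 35 °C. The cytochrome c oxidase transcript FBtr0171082 averaged 0.24 higher and GI15405 (CG3446, of respiratory complex I) 0.20. The terms also place disco (GI10902) in that list, a transcription factor in *D. melanogaster* and no respiratory subunit, at 0.33. Carbohydrate catabolism (32 of 34, median 0.139) and lipases (8 of 9, median 0.205) leaned the same way, and the lipase list holds neuroligin (GI24029), a synaptic adhesion protein with a lipase-like domain, at 0.31.

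DNA replication and repair ran against the other lists. Of its 17 transcripts 16 averaged higher on organ pipe, with a median of -0.124. The list's medians were 0.005, -0.317 and -0.090 at 15, 25 and 35 °C. At an unadjusted p under 0.05 there were 2 toward organ pipe, beside 1458 of all 14528 transcripts (10.0%) and 63 of the 1415 annotated ones. Toward organ pipe the count at that level was 11 with each array centred on its median, beside 2343 of all 14528 (16.1%). Without the replicate 4 pair it was 2, or 15 with array spread as a covariate as well, beside 3544 and 2373 of all transcripts. GI24096 ran from 10.22 through 10.53 to 11.62 on agria and from 10.45 through 10.87 to 11.23 on organ pipe, with 6 agria arrays below every organ pipe array (-0.28 ± 0.10 SE, adjusted p 0.163), and FBtr0163548 averaged -0.19. The exception was DNaseII (GI23709), a nuclease that degrades DNA, at 0.37. Without the replicate 4 pair GI24096 passed toward organ pipe (adjusted p 0.00174) and DNaseII toward agria (0.00532), and neither did with array spread as a covariate (0.0448 and 0.247), in a fit where 20.3% of all transcripts passed before the covariate was added. Ribosome and translation (14 of 23 above 0, median 0.009) and the odorant binding and chemosensory list (4 of 9, median -0.008) stood near 0. The latter also holds kto, a Mediator subunit in *D. melanogaster* and the member at the median, and the muscle gene Mlc1, through their terms. In the nucleosome list, 1 of 3 transcripts was above 0. For heat shock proteins 9 of 11 averaged higher with a median of 0.063, below that of annotated transcripts, and the small heat shock transcript GI19527 was at 0.22.

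**Figure D4:**
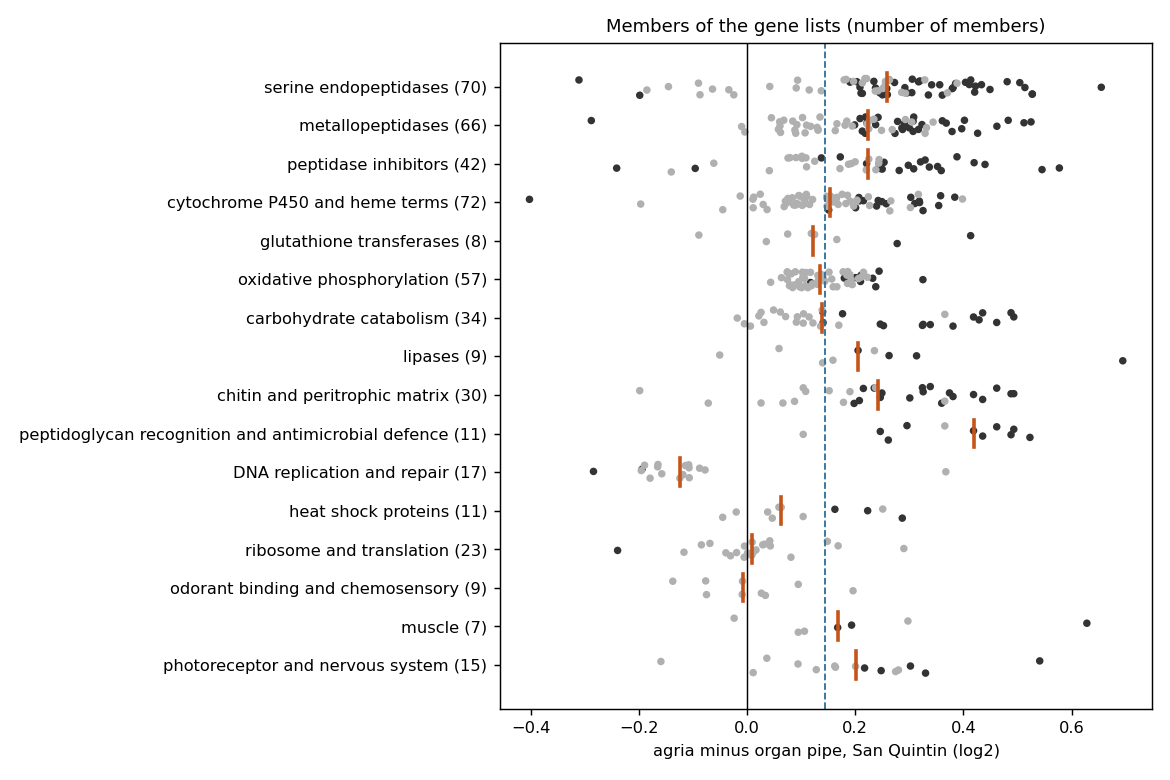
Log2 difference (agria minus organ pipe, 24 San Quintin arrays) of each member of the functional lists, dark where the unadjusted p was under 0.05 and grey otherwise, with each list's median as an orange bar and the median of all annotated transcripts (0.145) as a dashed line. Peptidoglycan recognition lay highest among lists of more than 10 members (0.419) and DNA replication and repair lowest (-0.124).

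Tissue markers other than gut moved by varied amounts beside these lists. Flight muscle actin Act88F (GI23222) averaged 0.63 higher on agria, from 11.82 through 12.46 to 12.86 against 11.22 through 11.76 to 12.39, with 8 agria arrays above every organ pipe array (adjusted p 0.12), while it was 1.02 in Punta Prieta and -0.57 in Punta Onah. The other muscle markers measured less, with troponin C TpnC73F at 0.17 and the myosin light chain Mlc1 at 0.09, and 6 of 7 muscle transcripts were above 0 with a median of 0.168. Of the eggshell list, Vm26Ab was at 0.43 and Vm26Aa at 0.48, while Cp190, a chromatin insulator protein that the list took in by its name, was at -0.06. Of 15 photoreceptor and nervous system transcripts 14 were above 0 (median 0.201), with the GABA-synthesis gene Gad1 at 0.30, the rhodopsin phosphatase rdgC at 0.27 and rdgA at 0.04. The male reproductive list held 1 transcript, unc, at 0.01. Its terms include sensory cilium assembly and perception of sound beside spermatogenesis, so it does not mark male tissue alone. The part of tissue amounts in the differences above was not tested.

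The study singled out 6 cactus genes from all populations together, and in San Quintin all 6 averaged higher on agria without passing the adjusted threshold. GI21891, with lipase terms, measured 12.50, 11.94, 12.32 and 12.33 on agria and 11.78, 11.82, 11.47 and 11.52 on organ pipe at 15 °C. At 25 °C it measured 12.60, 12.19, 11.85 and 12.38 on agria and 10.69, 11.80, 11.30 and 11.54 on organ pipe. At 35 °C it measured 11.24, 10.81, 10.94 and 11.11 on agria and 10.94, 10.06, 10.36 and 10.60 on organ pipe. The cacti were apart at 15 and 25 °C and overlapped at 35 °C, where levels on both averaged lower. The difference was 0.69 ± 0.18 (SE, 1.62-fold, adjusted p 0.0874), and without the replicate 4 pair the adjusted p was 0.00394, or 0.0431 with array spread as a covariate. The serine endopeptidase GI17776 averaged 0.66 ± 0.28 higher, with 8 agria arrays above every organ pipe array, and the cysteine peptidase GI20850 0.64 ± 0.22 higher. GI11137, with monocarboxylate transporter terms, averaged 0.54 ± 0.19 higher and GI12602 (CG13912) 0.51 ± 0.21 higher. Flightin (GI13378), a flight muscle filament protein, was at 0.30 ± 0.24, below its 0.95 in Punta Prieta, 0.43 in Punta Onah and 0.74 in Organ Pipe National Monument. These genes were chosen on arrays that include the present ones.

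Adult temperature was crossed with cactus, and the question was whether the larval cactus left a different mark at 15, 25 and 35 °C. In the test of cactus by temperature no transcript passed the adjusted threshold (limma F test, 0 of 14528, 0% called, smallest adjusted p 0.0683), and 682 were at an unadjusted p under 0.05 (4.69%). Within 15 °C there were 0 calls, with 651 transcripts toward agria and 1726 toward organ pipe at an unadjusted p under 0.05 (4.48% and 11.9%, 16.4% in all). Within 25 °C there were 0 calls, with 1369 and 544 (9.42% and 3.74%, 13.2% in all), and the smallest adjusted p, 0.0433, belonged to GI22017 (CG18437), 0.88 higher on agria. Within 35 °C there was 1 call (0.00688%), with 237 and 365 at an unadjusted p under 0.05 (1.63% and 2.51%, 4.14% in all). Differences of 1.5 times or more numbered 1334 at 15 °C, 262 at 25 °C and 111 at 35 °C. Without the replicate 4 pair the calls at 35 °C numbered 2348, 311 higher on agria and 2037 higher on organ pipe, and those at 15 and 25 °C stayed at 0. With array spread as a covariate as well, 5 passed at 35 °C.

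The call at 35 °C was FBtr0166598, a transcript with no annotation. At 35 °C it measured 9.82, 10.34, 9.70 and 10.46 on agria and 9.68, 9.14, 8.96 and 9.04 on organ pipe, with every agria array above every organ pipe array. At 15 °C it measured 9.55, 9.17, 9.28 and 9.17 on agria and 9.30, 9.68, 9.30 and 9.69 on organ pipe. At 25 °C it measured 9.52, 9.33, 9.46 and 9.31 on agria and 9.25, 9.21, 10.00 and 9.19 on organ pipe. All agria arrays at 35 °C were above all agria arrays at 15 and 25 °C. The difference at 35 °C was 0.88 (adjusted p 0.00198, limma), while the differences at 15 and 25 °C were -0.20 and -0.01. Its test of cactus by temperature missed the threshold (adjusted p 0.0683), and its call at 35 °C was lost without organ pipe replicate 2, 3 or 4, without agria replicate 2, with arrays centred on their medians, or with the San Quintin arrays fitted alone. The Kunitz-type inhibitor FBtr0168490 was highest at the other end, at 1.20 at 15 °C (adjusted p 0.122), -0.23 at 25 °C and 0.00 at 35 °C.

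The cactus differences at 2 temperatures had correlations across transcripts of 0.204 (15 and 25 °C), 0.525 (15 and 35 °C) and 0.276 (25 and 35 °C), each over 14528 transcripts, which are not independent replicates. Without the replicate 4 pair the value for 15 and 35 °C was 0.824 and that for 25 and 35 °C 0.217. The correlation of the cactus difference with the loading of the array spread component was 0.839 at 15 °C, 0.127 at 25 °C and 0.469 at 35 °C, or 0.903 at 35 °C without the pair. The pair were the lowest and highest arrays of that component, so the rise at 35 °C without them is in part built in. Because the 15 °C difference ran with the same loading, the rise from 0.525 to 0.824 is in part built in too. It is not separate evidence of likeness between temperatures. Interquartile ranges at 15 °C were 3.17 to 3.40 on agria and 2.87 to 3.32 on organ pipe, and at 25 °C they were 2.96 to 3.14 and 3.01 to 3.25. Array spread and cactus thus moved together at 15 °C more than at 25 °C, and the part of spread in the differences was not tested beyond the fits with it as a covariate.

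The same comparison in Punta Prieta gave 1039 calls (7.15%), 940 higher on agria (6.47%) and 99 higher on organ pipe (0.681%). In Punta Onah there were 2 (0.0138%) and in Organ Pipe National Monument 2166 (14.9%), 1531 of them higher on agria (10.5%) and 635 higher on organ pipe (4.37%). No transcript's cactus difference was shown to be particular to San Quintin, since 0 passed against Punta Prieta (0% called, limma, 308 or 2.12% at an unadjusted p under 0.05) and 0 against the mean of the other populations (0% called, 337 or 2.32%). The smallest p against that mean was that of FBtr0167649, with a difference of -0.66 (adjusted p 0.816). The median standard error of the difference between San Quintin and Punta Prieta was 0.149, so gaps of that size were not detectable for a typical transcript.

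San Quintin flies shared the direction of the Punta Prieta calls at smaller size. Of the 940 transcripts higher on agria in Punta Prieta, 933 were above 0 in San Quintin, with a median of 0.233 against 0.451, and 493 were at an unadjusted p under 0.05 in the same direction. Of the 99 higher on organ pipe there, 98 were below 0 in San Quintin, with a median of -0.154 against -0.358, and 39 were at that level. The Punta Prieta medians come from the arrays that chose these transcripts. Of the 1531 agria calls of Organ Pipe National Monument 1511 were above 0 in San Quintin (median 0.201 against 0.453), and of its 635 organ pipe calls 588 were below 0 (median -0.084 against -0.316). Over all transcripts the San Quintin difference had a correlation of 0.833 with that of Punta Prieta, 0.619 with that of Organ Pipe National Monument and 0.329 with that of Punta Onah. Without the replicate 4 pair at 35 °C the correlations were 0.836, 0.509 and 0.399 in the same order. These values are descriptions across 14528 transcripts that share platform and normalization, and array spread varied in each population.

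**Figure D5:**
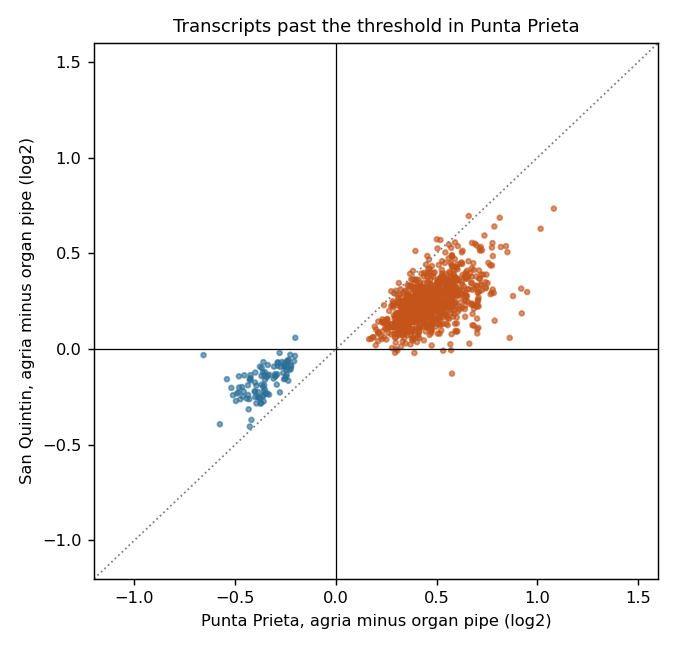
Log2 cactus difference (agria minus organ pipe) in San Quintin flies against that in Punta Prieta flies for the 1039 transcripts called in Punta Prieta, coloured by direction there, with equality as a dotted line. Of the 940 called higher on agria there, 933 lay above 0 in San Quintin, and of the 99 called higher on organ pipe 98 lay below 0.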

How the data were processed

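The authors hybridised Cy3-labelled cDNA to single-colour arrays with 9 probes per transcript, quantile-normalized the spot intensities and summarised them by Robust Multichip Average (RMA, also in the submitters' processing notes). The deposited log2 values were used as they stand. Quantile normalization gives probes a common distribution, so array spread after summarising is not a raw measure. Raw intensities and background were not used here, and precision rests on how many arrays each group had. Names and terms came from the study's supplementary tables, held here in part.

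Groups came from the labels. limma 3.58.1 (R 4.3.3) fitted 24 population, cactus and temperature means to 97 arrays (73 residual degrees of freedom) by lmFit and eBayes, and the San Quintin contrast averaged 3 temperature differences. P-values were adjusted by Benjamini-Hochberg over 14528 transcripts within each contrast, with a threshold of 0.01. Fits were tested on simulated data with known San Quintin cactus differences. At a true log2 difference of 0.25, 7 of 67 transcripts passed the threshold, at 0.5 42 of 67 and at 1 65 of 66, with 1 false call. The simulated noise was independent between transcripts, so it did not hold the shared spread component. Named transcripts were those of the study's 6 cactus genes, up to 3 members per list with the smallest p, tissue markers, and those past a threshold. The members and lists were chosen with earlier results of these data known. A total of 42 alternatives were tried.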

Additional observations from a re-analysis of the deposited data

Results flagged for a closer look

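Of 42 gap ratios, each the distance of the highest or lowest of 4 arrays to its neighbour over the group's range, 2 were above Dixon's critical value for 4 samples, and chance gives about 1 in 20 groups. Both were in San Quintin flies on organ pipe at 25 °C. FBtr0170844 had a ratio of 0.874, with 1 array at 11.44 and the other 3 between 12.12 and 12.22. FBtr0166598 had a ratio of 0.928, with 1 array at 10.00 and the other 3 between 9.19 and 9.25.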

How the results depend on the processing

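The count of 0 for agria vs. organ pipe stood under 33 of 42 alternatives. Leaving out 1 array or 1 replicate number gave 0 to 1259 calls (417 without agria 35 °C replicate 4, 53 without its organ pipe counterpart, 1 without organ pipe 35 °C replicate 1). Joint adjustment gave 57. Added alternatives were chosen after seeing the data, namely without both replicate 4 arrays at 35 °C (2956), the same with array interquartile range as a covariate (9), without both arrays of lowest spread (3), and 15 and 25 °C only (1). Joint adjustment gave 28 calls at 15 °C, 31 at 25 °C and 5 at 35 °C. At 25 °C leaving out arrays gave 0 to 1 calls. At 35 °C leaving out arrays gave 0 to 2309 calls (73 without agria replicate 4), the San Quintin arrays alone 0, median centring 0, both replicate 4 arrays out 2348, the same with the covariate 5, and both arrays of lowest spread out 4. For cactus by temperature the count was 1 with the covariate, 1 without both replicate 4 arrays at 35 °C, and 0 to 1 with arrays left out. Members of the lists past the threshold numbered 0 to 29 with arrays left out, 69 without both replicate 4 arrays at 35 °C, 1 with the covariate added, 1 without both arrays of lowest spread, and 5 by joint adjustment. The tests against the other populations stayed at 0. Of 60 named transcripts 33 passed the threshold under at least 1 alternative. FBtr0166598 reversed to -0.10 at 15 and 25 °C only, Or49a (FBtr0169782) to 0.0185 with the covariate, and rdgA (FBtr0165764) to -0.0115 with median centring and ran from -0.0591 to 0.127 when arrays were left out. Why these changed was not tested.

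Replicate numbers gave no pairing, since of 60 same-number pairs of arrays 20 had correlated deviations above 0.1 and 3 of 24 arrays correlated best with their own number, and the fit with the replicate number as a block gave 0 calls. Depth has no meaning for these arrays, and signal over background is not known from summarised values.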

Other observations

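The transcripts with the widest differences had no annotation and varied within groups. FBtr0170087 averaged 1.19 ± 0.55 (SE) higher on agria, and its 12 agria arrays ran from 6.41 through a median of 7.29 to 10.61 against 6.06 through 6.40 to 9.74 on organ pipe. FBtr0171552 averaged 1.04 higher, with agria arrays from 8.72 through 9.74 to 12.73 and organ pipe arrays from 8.11 through 8.88 to 11.60. Both were high in agria replicates 2 and 4 at 15 °C and in agria replicates 1 and 3 and organ pipe replicate 4 at 35 °C.

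FBtr0165285 and FBtr0161069 averaged higher on organ pipe (-0.65 and -0.64). Their highest San Quintin values, 12.34 and 12.25, were in the array labelled agria 35 °C replicate 4, and their lowest organ pipe values, 9.47 and 9.48, were in organ pipe 35 °C replicate 4. These transcripts were chosen after their values were seen.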
